A study of Nothobranchius furzeri with 20 samples.

Results

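The comparison of skin at 14 weeks with skin at 10 weeks covers the 5 libraries labelled 14 weeks and the 5 labelled 10 weeks, 10 of the 20 libraries of the series. Each library holds total RNA from skin of a male turquoise killifish (Nothobranchius furzeri) of the GRZ strain, with no treatment in the labels, and the other 10 libraries are of the same strain, sex and tissue at 5 and 7 weeks. GRZ is an inbred strain, so results on it describe 1 genetic background. The labels do not state whether the libraries of an age came from separate fish, so a p-value here measures how these libraries differ among themselves, which may be partly technical.

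Fish skin is a layered tissue of keratinocytes and mucous cells over a dermis with scales, pigment cells, vessels and nerves, and a whole-skin library sums the RNA of all of them. The turquoise killifish matures and ages within a single season, and GRZ is its best-known short-lived laboratory strain. Both kinds of age difference were read from these libraries, a change in the mean level of a transcript and a change in how much its level differs between libraries of the same age. In bulk samples, fewer cells of a type and less RNA per cell cannot be told apart.

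The 5 libraries of 10 weeks held 21616172 to 32418365 counts each and the 5 of 14 weeks 21581757 to 33838693. After a filter on low counts, 19192 of 26739 IDs were tested. Genes carry an ID and no symbol in the files, and RefSeq's genes of this fish list none of these IDs, so no gene is given a name or a function and the tissue label could not be checked against skin marker genes. Levels are given as CPM, a gene's count as a share of its library total after scaling by TMM factors. Levels were not compared between genes.

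Before any comparison, 3 of the 10 libraries stood apart, 10 weeks replicate 4 and 14 weeks replicates 3 and 4. The difference between 2 libraries was taken as the median over genes of the absolute difference in log2 CPM. Within 10 weeks, the 6 pairs among replicates 1, 2, 3 and 5 differed by 0.29 to 0.42, and the 4 pairs with replicate 4 differed by 0.41 (replicate 3) to 0.64 (replicate 2). Within 14 weeks, replicates 1, 2 and 5 differed from each other by 0.46 to 0.48. Replicates 3 and 4 differed from each other by 0.40 and from replicates 1, 2 and 5 by 0.61 to 0.92. The 14 weeks libraries thus formed a pair and a set of 3, and the median over their 10 pairs was 0.66, against 0.41 over the 10 pairs of 10 weeks.

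**Figure D1:**
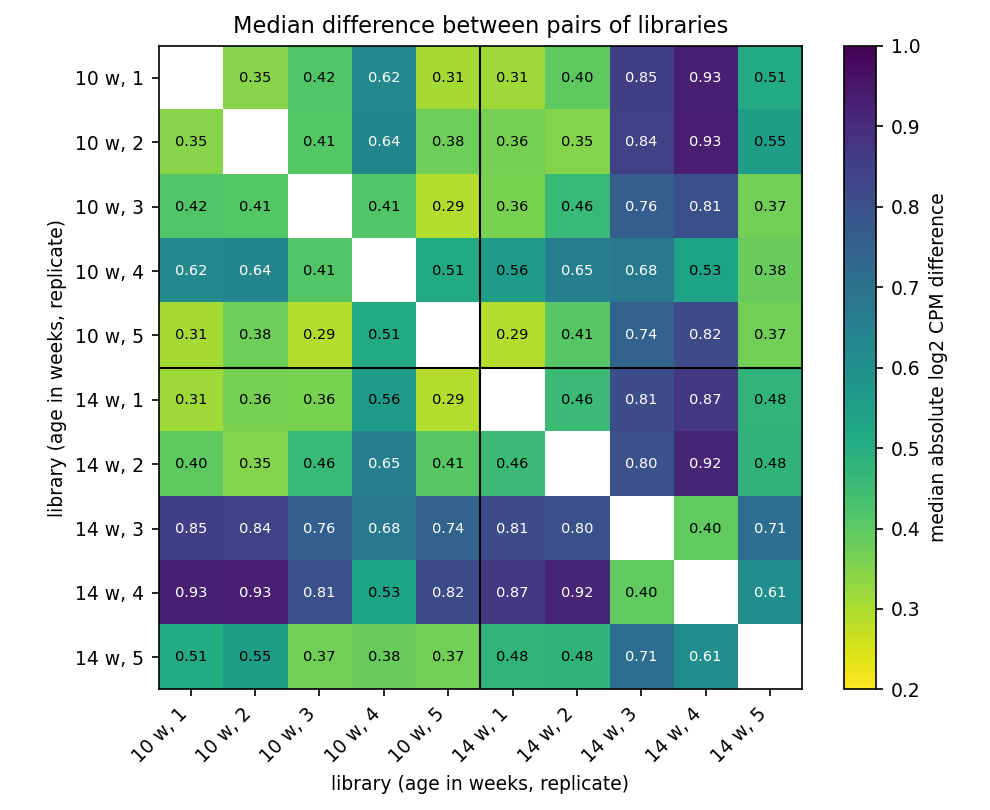
Median absolute difference in log2 CPM over 19192 genes for each pair of the 10 libraries, with libraries named by age in weeks and replicate on both axes and black lines between the ages. 14 weeks replicates 3 and 4 are close to each other (0.40) and far from 14 weeks replicates 1 and 2 (0.80 to 0.92), while 14 weeks replicate 1 is as close to 10 weeks replicate 5 (0.29) as any 2 libraries of 10 weeks are to each other.

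Libraries of different ages were often closer than libraries of 1 age. The smallest of the 25 differences between ages, 0.29, lay between 14 weeks replicate 1 and 10 weeks replicate 5, and the largest, 0.93, between 14 weeks replicate 4 and 10 weeks replicates 1 and 2. 14 weeks replicate 1 differed from 10 weeks replicates 1, 2, 3 and 5 by 0.29 to 0.36, less than from any other 14 weeks library (0.46 to 0.87). 14 weeks replicate 5 was closer to 10 weeks replicates 3, 4 and 5 (0.37 to 0.38) than to any library of its own age (0.48 to 0.71). 10 weeks replicate 4 was closer to 14 weeks replicate 5 (0.38) than to any other library of 10 weeks (0.41 to 0.64).

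The mean levels of single genes did not separate the ages past the adjusted threshold. In edgeR's quasi-likelihood test on counts, 0 of 19192 genes (0%) had an adjusted p under 0.05, and the smallest adjusted p was 0.202. At an unadjusted p under 0.05 in the same test, 2874 genes (15%) were higher and 724 (3.77%) lower at 14 weeks. DESeq2 called 270 genes (1.41%), of which 212 were higher and 58 lower, and limma voom called 0, with 2408 at an unadjusted p under 0.05. Without 14 weeks replicate 1, edgeR called 514 genes, 323 of them higher. Leaving out any other library of 10 or 14 weeks gave 0 calls, with 1270 to 4829 genes at an unadjusted p under 0.05. By that measure edgeR gave 3598 genes in the main setting and 1906 with only the 10 libraries of both ages. It gave 708 without both 14 weeks libraries that stood apart and 1076 without all libraries that stood apart. Fewer libraries by themselves tend to lower the count. The count thus depended on the libraries used and is not by itself evidence of an age shift.

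Mean differences also varied with abundance. Genes were put into 5 classes by their mean level over all 20 libraries. The median log2 fold change from 10 to 14 weeks was 0.21 in the 2031 genes under 1 CPM, 0.18 in the 7106 genes from 1 to 10 CPM and 0.042 in the 8909 genes from 10 to 100 CPM. It was −0.16 in the 1019 genes from 100 to 1000 CPM and −0.26 in the 127 genes of 1000 CPM and over, against 0.079 over all genes tested. With upper-quartile factors in place of TMM the median over all genes was 0.0028, and the value of the class from 10 to 100 CPM became −0.035, while the other classes kept their sign. That scaling gave 2224 genes higher and 957 lower at an unadjusted p under 0.05.

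The most abundant genes took a share of the counts that differed widely at both ages. The 127 genes of 1000 CPM and over held 53.7%, 49.6%, 38.8%, 29.8% and 46.0% of the counts in 10 weeks replicates 1 to 5, and 45.7%, 48.501%, 30.7%, 25.3% and 40.1% in 14 weeks replicates 1 to 5. The lowest shares lay in the 3 libraries that stood apart. The means were 43.6% ± 9.46 at 10 weeks and 38.1% ± 9.83 at 14 weeks (SD, n = 5 each), and the difference of −5.51 percentage points was within the spread between libraries (p = 0.389, adjusted p = 0.467 over 6 measures, two-sided exact permutation test). The number of genes over 1 CPM was highest in the same 3 libraries, at 17020 in 10 weeks replicate 4 and 17263 and 17117 in 14 weeks replicates 3 and 4. The other 4 libraries of 10 weeks had 15763 to 16272 and the other 3 of 14 weeks 15865 to 16588, with p = 0.381 between ages (adjusted p = 0.467, exact permutation test).

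The ages did not overlap in 84 genes (0.438%) with all 14 weeks libraries above and in 75 (0.391%) with all of them below. If age labels were random, a gene would separate fully in either direction with a probability of 0.00794. The shares together are close to this rate, so non-overlap by itself is not evidence of an age difference. Of the genes without overlap and with a mean of at least 10 CPM, those with the smallest p in each direction are described. None of them passed the adjusted threshold. Nfu_g_1_021032 stood at 13.6, 11.8, 6.59, 9.99 and 11.8 CPM in 10 weeks replicates 1 to 5 and at 14.6, 22.7, 35.45, 26.8 and 22.3 CPM in 14 weeks replicates 1 to 5. The ages did not overlap, although 10 weeks replicate 1 and 14 weeks replicate 1 were close. Its log2 fold change was 1.18 (SE 0.24; adjusted p = 0.202, edgeR), and its mean at 5 weeks, 28.3 CPM, was above that at 14 weeks.

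Nfu_g_1_018381 stood at 44.2, 32.9, 9.26, 15.4 and 40.4 CPM at 10 weeks and at 48.6, 98.0, 87.6, 134 and 150.4 CPM at 14 weeks. The lowest 14 weeks library, replicate 1, was again next to the highest of 10 weeks. The log2 fold change was 1.87 (SE 0.46; adjusted p = 0.202, edgeR). At 5 weeks the mean was 281 ± 118 CPM (SD, n = 5) and at 7 weeks 161 ± 88.8 CPM, so that 10 weeks was the lowest of the 4 ages.

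Of the IDs that were lower at 14 weeks, Nfu_g_1_010740 stood at 73.7, 64.6, 72.3, 60.4 and 66.4 CPM at 10 weeks and at 57.2, 46.8, 43.4, 39.3 and 43.6 CPM at 14 weeks. Replicate 1 was the highest 14 weeks library. The log2 fold change was −0.55 (SE 0.11; adjusted p = 0.202, edgeR). Nfu_g_1_000731 stood at 207, 131, 181, 127 and 187 CPM at 10 weeks and at 88.0, 105, 69.0, 66.3 and 109.6 CPM at 14 weeks, and fitted at −0.93 on the log2 scale (SE 0.22; adjusted p = 0.202, edgeR). Here 14 weeks replicates 3 and 4 were the lowest and replicate 5 the highest of their age. For all 4 IDs the adjusted p was under 0.05 in DESeq2 (0.0016 to 0.0261) and in edgeR without 14 weeks replicate 1 (0.0187 to 0.0468). Over all alternatives it ran from 0.0016 to 0.9999.

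**Figure D2:**
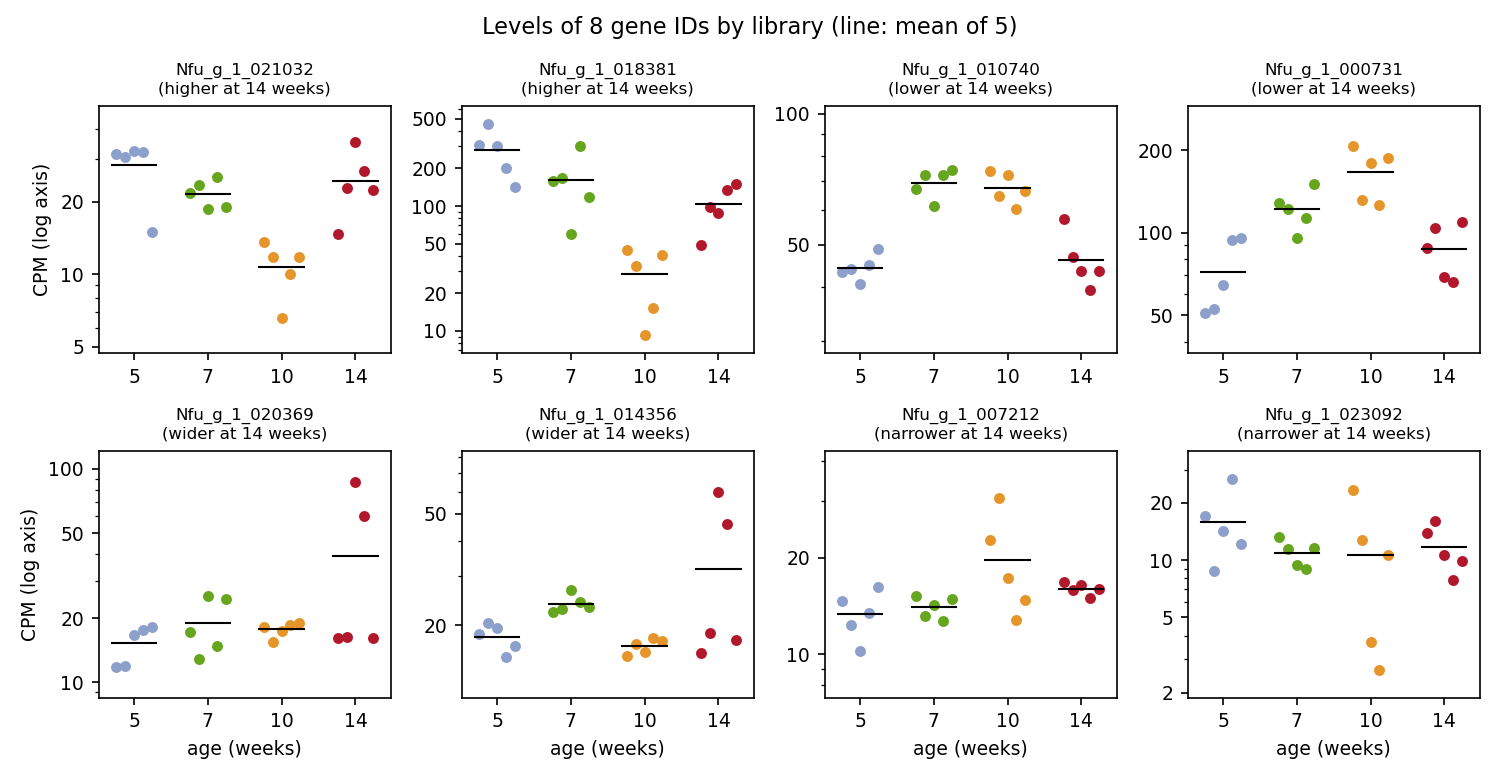
CPM (log axis) of 8 gene IDs in each of the 20 libraries by age in weeks, with a line at the mean of the 5 libraries of an age; the upper row holds the 4 IDs named for their mean and the lower row the 4 named for their spread. In the 2 wider IDs, Nfu_g_1_020369 and Nfu_g_1_014356, 14 weeks replicates 3 and 4 lie above 45 CPM and the other 3 libraries of that age below 19 CPM.

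The spread between libraries was larger at 14 weeks for most genes. The SD of log2 CPM over 5 libraries had a median over genes of 0.41 at 10 weeks and 0.60 at 14 weeks, and 74.8% of genes had the larger SD at 14 weeks. The median log2 ratio of the SDs was 0.51, a 1.42-fold larger SD, with a jackknife SE over the 10 libraries of 0.37. The median SD was 0.39 at 5 weeks and 0.36 at 7 weeks. Without 10 weeks replicate 4 the median log2 ratio was 0.87. Without both 14 weeks replicates 3 and 4, a setting added with the data in view, it was 0.026, and without all 3 of these libraries it was 0.32. In both settings the SD at 14 weeks is over fewer libraries than at 10 weeks, which by itself tends to lower the ratio.

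Across abundance classes the median log2 ratio lay between 0.32 and 0.56 up to 1000 CPM and at 0.11 above. Under 1 CPM the median SD was 0.62 at 10 weeks and 0.77 at 14 weeks, a median log2 ratio of 0.32 (jackknife SE 0.25). From 1 to 10 CPM it went from 0.47 to 0.68 with a median log2 ratio of 0.49 (jackknife SE 0.36), and from 10 to 100 CPM from 0.32 to 0.51 with 0.56 (jackknife SE 0.40). From 100 to 1000 CPM it was 0.40 and 0.58, with a ratio of 0.50 (jackknife SE 0.42), and at 1000 CPM and over 0.52 and 0.61, with a ratio of 0.11 (jackknife SE 0.62). The share of genes with the larger SD at 14 weeks was 64.6%, 73.7%, 77.8%, 77.2% and 66.1% from the lowest to the highest class. In the highest class the median log2 ratio was −0.059 without 10 weeks replicate 5 and −0.054 without 14 weeks replicate 2, and in all 5 classes it was 0.58 to 0.95 without 10 weeks replicate 4. The classes were not tested against each other.

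**Figure D3:**
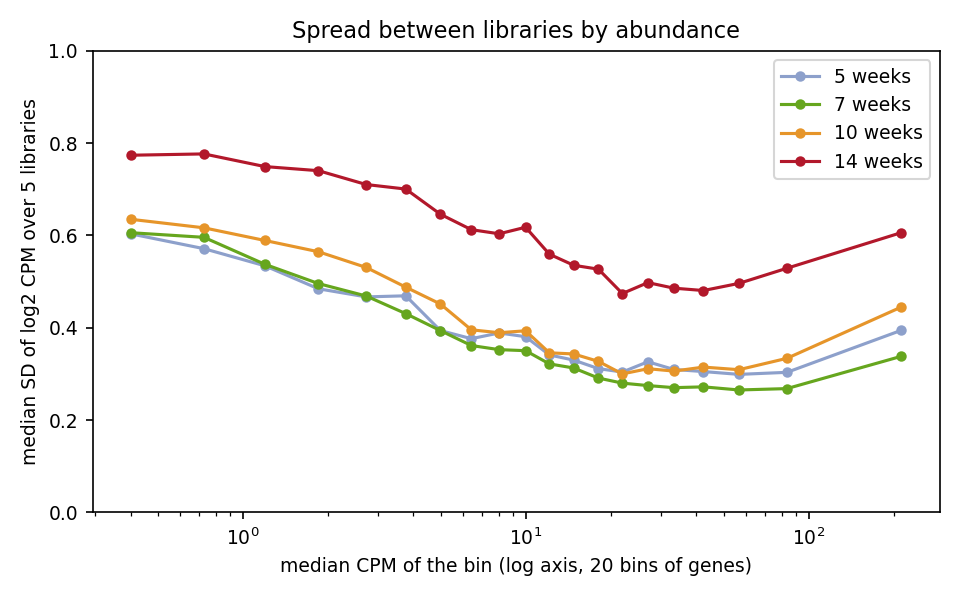
Median SD of log2 CPM over the 5 libraries of an age (vertical axis) against the median CPM of 20 bins of genes ranked by abundance (log axis), 1 line per age. The 14 weeks line lies above the other 3 ages in every bin, and the 10 weeks line lies close to those of 5 and 7 weeks.

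Counting noise made up part of the spread of low genes. Its variance was estimated from the inverse of the counts, without the prior count that log2 CPM includes. The shares of low genes therefore tend to be too high. At 10 weeks counting noise by this estimate accounted for a median of 64.3% of the variance under 1 CPM, 13.7% from 1 to 10 CPM, 3.41% from 10 to 100 CPM and 0.292% from 100 to 1000 CPM. At 14 weeks the shares were 37.2%, 6.14%, 1.35% and 0.145%. Below 1 CPM the ratio of the SDs therefore understates the ratio of the variation beyond counting.

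Library by library, the distance from the other libraries of the same age was larger at 14 weeks. This distance is how far a library lies from the average of its 4 companions of that age, as the median over genes of the absolute difference in log2 CPM. It was 0.35, 0.37, 0.26, 0.51 and 0.23 in 10 weeks replicates 1 to 5 and 0.56, 0.59, 0.55, 0.60 and 0.40 in 14 weeks replicates 1 to 5. The ages overlapped only in that 10 weeks replicate 4 lay above 14 weeks replicate 5. The means were 0.34 ± 0.11 and 0.54 ± 0.079 (SD, n = 5 each), a difference of 0.20 with p = 0.0159 (two-sided exact permutation test over all splits of 5 against 5, whose smallest possible p is 0.00794). Adjusted over the 3 steps between neighbouring ages the p was 0.0476 (exact permutation test). Distances within an age share libraries, so a distant library also raises the distances of its companions. The test leaves this out, and its p may be too small. The p was 0.0556 without 10 weeks replicate 3, 0.0873 without 14 weeks replicate 3, 0.0556 without 14 weeks replicate 4 and 0.304 without both of the latter (exact permutation tests). Without all 3 libraries that stood apart the difference was 0.12 with p = 0.0286 (exact permutation test), the smallest p possible with the libraries left. In that setting the average at 14 weeks is over 2 companions and at 10 weeks over 3, which by itself makes the former distances larger.

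By abundance class the distance was larger at 14 than at 10 weeks in all 5 classes. The difference passed the adjusted threshold only in the 3 lower ones, in tests that also leave out the sharing of libraries. Differences were not compared between classes by a test. The difference was 0.18 under 1 CPM, 0.22 from 1 to 10 CPM and 0.18 from 10 to 100 CPM (p = 0.0159 each, adjusted p = 0.0265 over 5 classes, exact permutation test). From 100 to 1000 CPM the difference was 0.17 with an adjusted p of 0.159, and at 1000 CPM and over it was 0.050 with an adjusted p of 0.714 (exact permutation tests). In the highest class 10 weeks replicate 4 had the largest distance of all 10 libraries, 0.89, and 14 weeks replicate 5 stood at 0.19. In the 3 lower classes the adjusted p was between 0.0529 and 0.159 on leaving out any 1 library other than 10 weeks replicate 4 or 14 weeks replicate 5. In the class from 100 to 1000 CPM it was 0.0397 without 10 weeks replicate 4 and 0.0265 without 14 weeks replicate 5, and the difference at 1000 CPM and over was −0.078 without 10 weeks replicate 5 (exact permutation tests).

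**Figure D4:**
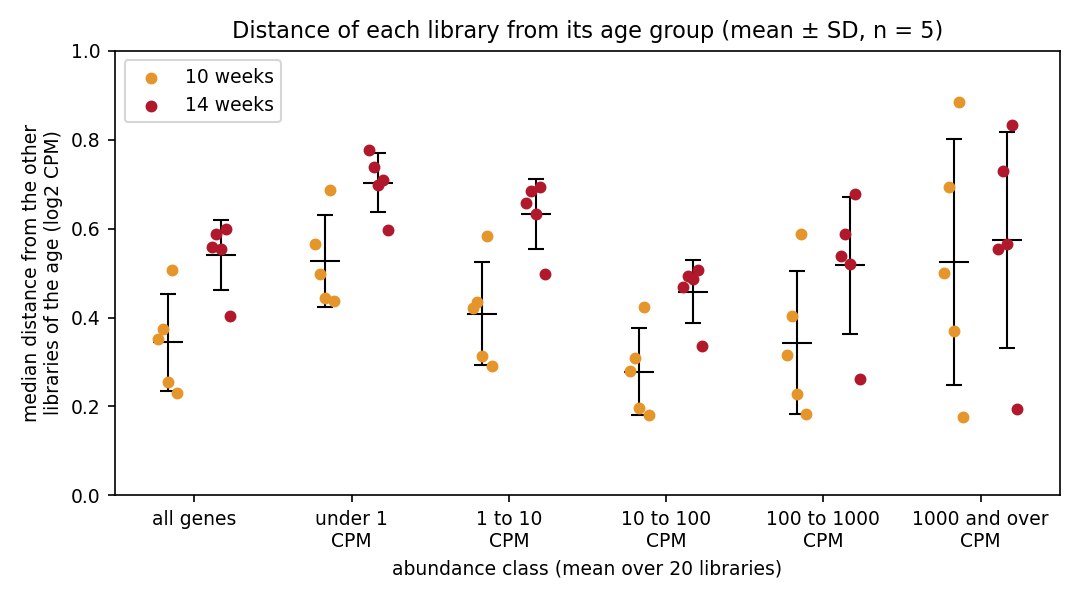
Distance of a library from the average of its 4 companions of the same age (log2 CPM, vertical axis) over all genes and by abundance class, with points for libraries and bars for mean ± SD of 5. Of the 14 weeks libraries 4 lie above all 10 weeks libraries over all genes, and at 1000 CPM and over the ages overlap fully, with 10 weeks spanning 0.18 to 0.89 and 14 weeks 0.19 to 0.83.

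The preceding steps gave other values for the same measures. From 7 to 10 weeks the median log2 ratio of the SDs was 0.16 and the distance differed by 0.039 (p = 0.540, exact permutation test). From 5 to 7 weeks they were −0.10 and −0.034 (p = 0.452, exact permutation test). In limma's test of absolute deviations from the age mean, gene by gene, 0 genes (0%) were wider and 0 narrower at 10 than at 7 weeks, with 718 and 590 at an unadjusted p under 0.05. At 7 against 5 weeks 139 genes (0.724%) were wider and 40 (0.208%) narrower, while at an unadjusted p under 0.05 the counts were 1022 wider and 1346 narrower. The step from 7 to 10 weeks shares the 10 weeks libraries with the comparison of 14 with 10 weeks, and the difference between steps was not tested.

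The ranks gave the same direction as the SDs. In 5933 genes (30.9%) the libraries of 14 weeks reached both above the highest and below the lowest library of 10 weeks. The mirror case, a 10 weeks range enclosing that of 14 weeks, held for 1836 genes (9.57%). In the class from 10 to 100 CPM the shares were 33.3% and 8.26%, and at 1000 CPM and over 9.45% and 4.72%. Without 14 weeks replicates 3 and 4 the shares were 12.7% and 33.9%, where 3 libraries at 14 weeks are set against 5 and so have less chance to enclose them. The unequal numbers alone would put the first share below the second. Without 10 weeks replicate 4 as well the shares were 22.3% and 19.7%, where 14 weeks still holds fewer libraries and so has less chance to enclose the other age.

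Tested gene by gene, 2440 genes (12.7%) had a wider spread at 14 weeks and 47 (0.245%) a narrower one. The test was the same, and at an unadjusted p under 0.05 it gave 4766 wider and 233 narrower genes. The calls have an adjusted p under 0.05. Both directions were adjusted together, so the many wider genes eased the threshold for narrower ones. The 47 may therefore hold chance calls and are not by themselves evidence of narrowing. Of the genes under 1 CPM 9.06% were wider, from 1 to 10 CPM 15.0%, from 10 to 100 CPM 12.6%, from 100 to 1000 CPM 6.77% and at 1000 CPM and over 1.57%, or 2 of 127. The median SD of the 2440 genes was 0.33 at 10 weeks and 1.11 at 14 weeks, and their log2 ratios ran from 0.63 to 4.86. Their median gene length, 2840 bases, was close to the 2674 bases of all genes tested. Over 5 bins of genes ranked by length the share of wider genes ran from 10.7% to 14.7%. The median log2 ratio of the SDs rose from bin to bin, from 0.40 in the shortest genes to 0.60 in the longest. This trend with length was not tested. The shift of a library in its median log2 CPM ran from −0.12 to 0.14 over these bins.

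The count of wider genes depended on how deviation was measured and on 2 libraries. With deviations from the age median in place of the mean, limma called 0 genes wider and 0 narrower, with 1253 and 33 at an unadjusted p under 0.05. These deviations were not scaled for the number of libraries. Where a pair of libraries stands apart they are large in the pair and small in the rest, so such genes are called less readily. With deviations from the age mean and the 10 libraries of both ages alone, limma called 686 wider and 8 narrower. The count of wider genes was 62 without 14 weeks replicate 3, 20 without replicate 4 and 0 without both. At an unadjusted p under 0.05 these settings gave 2975, 3322 and 1387 wider and 205, 232 and 713 narrower genes. The median log2 ratio of the SDs was 0.49 without replicate 3 and 0.48 without replicate 4. Genes left with a single distant library are called less readily by this test, as described below. The count of wider genes past the adjusted threshold was 1300 without 10 weeks replicate 3, 3934 without 10 weeks replicate 4 and 3826 without 14 weeks replicate 5. The count of narrower genes was 1 and 0 without 14 weeks replicates 3 and 4, 90 without 14 weeks replicate 2, 28 without 10 weeks replicate 3 and 72 without 10 weeks replicate 5.

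The wider genes had a common shape. For each gene the 5 libraries of 14 weeks were ranked and split at the largest gap. In 2349 of the 2440 wider genes (96.3%) this gap set 2 libraries apart from 3, against 55.8% of all genes tested. In 1836 (75.2%) the 2 were replicates 3 and 4 above the rest, against 17.4% of all genes, and in 210 (8.61%) they were replicates 3 and 4 below the rest, against 8.55%. The remaining 394 genes had other splits. A split of 2 against 3 leaves the absolute deviations from the age mean nearly equal. The test therefore calls such genes more readily than genes with a single distant library. Test and split also come from the same libraries, so these shares describe the called genes and are not a further test.

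The 1836 genes with replicates 3 and 4 high summed to 94901 CPM in 14 weeks replicate 3 and 64238 CPM in replicate 4, and to 15839 to 17246 CPM in replicates 1, 2 and 5. At 10 weeks the sum was 16060 to 18865 CPM in replicates 1, 2, 3 and 5 and 25249 CPM in replicate 4. Relative to the 10 weeks mean of each gene, the median over the 1836 genes was 2.43 (log2) in 14 weeks replicate 3 and 1.87 in replicate 4, and −0.15, −0.21 and −0.15 in replicates 1, 2 and 5. The libraries of 5 and 7 weeks entered the choice of these genes only through the filter, the scaling and the shared variance. At 5 weeks the median lay between −0.12 and 0.19. At 7 weeks it was 1.25 in replicate 3, 0.77 in replicate 5 and −0.022 to 0.19 in the other 3, so that the genes were also high in single younger libraries.

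The 210 genes with replicates 3 and 4 low summed to 16234 and 18116 CPM in 14 weeks replicates 3 and 4, and to 45356, 39087 and 34507 CPM in replicates 1, 2 and 5. The median over the genes relative to 10 weeks was −1.21 and −1.44 (log2) in replicates 3 and 4 and −0.17 to 0.15 in the other 3. At 10 weeks replicate 4 was the lowest library, at −0.32. The younger libraries all lay below the 10 weeks mean, with −0.37 to −0.27 at 5 weeks and −0.40 to −0.22 in 7 weeks replicates 1, 2, 4 and 5. 7 weeks replicate 3, the highest younger library for the 1836 genes, was the lowest of them, at −0.63.

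**Figure D5:**
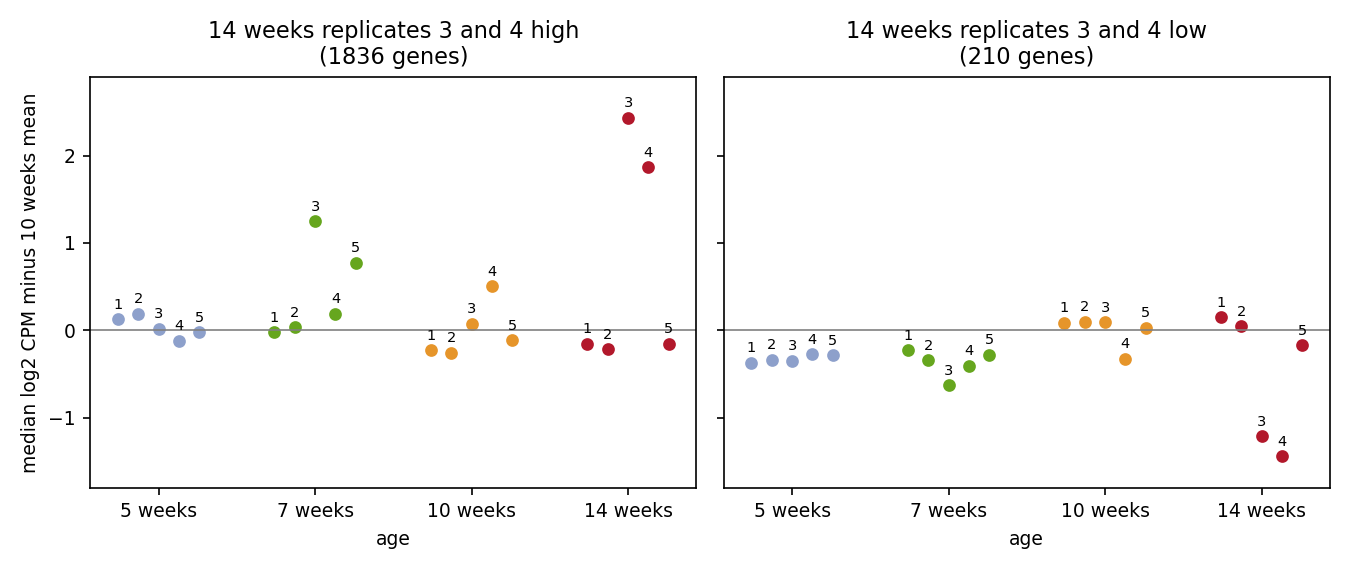
Median over genes of log2 CPM minus the 10 weeks mean of the gene (vertical axis) in each of the 20 libraries by age, with replicate numbers at the points, for the 1836 wider genes with 14 weeks replicates 3 and 4 high (left) and the 210 with both low (right). On the left 14 weeks replicates 3 and 4 stand at 2.43 and 1.87 and 7 weeks replicate 3 at 1.25, and on the right the same 3 libraries are the lowest.

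A single library was often the most distant one at 10 weeks. There replicate 4 was farthest from the age mean in 8304 genes (43.3%), against 7.44% to 20.9% for the other replicates. At 14 weeks no replicate had such a share over all genes, with 21.48%, 21.3%, 27.9%, 19.0% and 10.3% for replicates 1 to 5. At 1000 CPM and over the most frequent library was 10 weeks replicate 4 with 58.3% at the one age, and at the other 14 weeks replicate 2 with 48.0%, followed by replicate 4 with 31.5%. With the library farthest from the age median set aside for each gene at each age, the median log2 ratio of the SDs over all genes was 0.75, larger than the 0.51 with all 5. This can set aside 10 weeks replicate 4, but not both 14 weeks replicates 3 and 4, so the 0.75 does not show a widening free of distant libraries. Without both of the latter the ratio was 0.026. There the SD at 14 weeks is over fewer libraries than at 10 weeks, which by itself tends to lower the ratio.

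Change of mean and change of spread met in the same genes. Of the 2874 genes higher at 14 weeks at an unadjusted p under 0.05, 1469 (51.1%) were also wider, against 12.7% of all genes. Of the 724 genes lower, 34 (4.70%) were wider. Among the 2440 wider genes, 87.7% had the higher mean at 14 weeks, against 56.4% of all genes tested. Both measures use the same libraries, and a gene that is high in 2 of 5 libraries has both a higher mean and a wider spread.

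The 2 wider IDs with the smallest p at a mean of at least 10 CPM had this shape. Nfu_g_1_020369 stood at 18.2, 15.5, 17.3, 18.54 and 19.0 CPM in 10 weeks replicates 1 to 5 and at 16.2, 16.4, 86.8, 60.0 and 16.2 CPM in 14 weeks replicates 1 to 5. Replicates 3 and 4 were high, and the other 3 lay within the range of 10 weeks. The SD of log2 CPM went from 0.12 to 1.19, and the mean absolute deviation differed by 1.05 (SE 0.13; adjusted p = 0.00095, limma).

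Nfu_g_1_014356 stood at 15.5, 17.1, 16.0, 17.9 and 17.5 CPM at 10 weeks and at 15.9, 18.7, 60.0, 45.9 and 17.7 CPM at 14 weeks. Again only replicates 3 and 4 lay far from the rest. Its SD of log2 CPM went from 0.089 to 0.89, with a difference in mean absolute deviation of 0.77 (SE 0.10; adjusted p = 0.00095, limma). Its mean at 7 weeks was 23.8 ± 1.78 CPM (SD, n = 5). Without 14 weeks replicate 3 the adjusted p of Nfu_g_1_020369 and Nfu_g_1_014356 was 0.102 and 0.119, and without replicate 4 it was 0.0860 and 0.0977 (limma). Over all alternatives the adjusted p ran from 2.43e-05 to 0.861 for the former and to 0.946 for the latter, and it was 0.686 for both with deviations from the age median (limma).

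The 47 narrower genes, called under the adjustment shared with the wider genes, had a median of 3.42 CPM. Their median SD was 1.12 at 10 weeks and 0.29 at 14 weeks. In 39 of them the 10 weeks range enclosed that of 14 weeks. In 43 (91.5%, against 35.2% of all genes tested) the largest gap at 10 weeks set 2 libraries apart from 3. These were most often replicates 3 and 4 below the rest (12 genes, 25.53% against 5.23% of all genes) or replicates 1 and 2 above it (8 genes, 17.0% against 3.68%). As for the wider genes, call and split come from the same libraries, and the test favours such splits. Nfu_g_1_007212 stood at 22.7, 30.8, 17.3, 12.8 and 14.8 CPM at 10 weeks and at 16.8, 15.9, 16.5, 15.0 and 16.0 CPM at 14 weeks. The 5 libraries of 14 weeks were nearly equal, and the SD of log2 CPM went from 0.50 to 0.062, with a difference in mean absolute deviation of −0.40 (SE 0.11; adjusted p = 0.0182, limma).

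Nfu_g_1_023092 stood at 23.5, 12.7, 3.69, 2.63 and 10.6 CPM at 10 weeks and at 13.9, 16.0, 10.6, 7.83 and 9.92 CPM at 14 weeks. Here 10 weeks replicates 3 and 4 were low and replicate 1 high. The SD of log2 CPM went from 1.30 to 0.41, with a difference in mean absolute deviation of −0.83 (SE 0.22; adjusted p = 0.0191, limma). With the 10 libraries of both ages alone the adjusted p of Nfu_g_1_007212 was 0.107 and that of Nfu_g_1_023092 0.0865 (limma). The first was 0.0537 and 0.108 without 10 weeks replicates 1 and 2, and 0.191, 0.141 and 0.0550 without 14 weeks replicates 3, 4 and 5. The second was 0.215 and 0.292 without 10 weeks replicates 3 and 4, and 0.211, 0.138 and 0.0592 without 14 weeks replicates 3, 4 and 5. Over all alternatives the adjusted p ran from 0.0166 to 0.686 for the first and from 0.00709 to 0.686 for the second (limma).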

How the data were processed

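RNA from skin was sequenced with Illumina's TruSeq RNA kit, per the labels' protocols. Raw counts by gene ID and RPKM values were deposited, each in 1 table. The submitters' processing notes list featureCounts 1.4.6-p4, STAR 2.4.1d and CASAVA 1.8.2. Genome build, annotation and strand setting were not given in these sources, so reads of overlapping or near-identical genes may be shared. Replicates were numbered in accession order. The comparison, its abundance classes and the libraries set aside were chosen with earlier results of these data known.

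IDs were filtered with filterByExpr and tested with edgeR 4.0.16 (R 4.3.3), with TMM factors and the 4 age means fitted over all 20 libraries, so that all ages share 1 estimate of variation, and with Benjamini-Hochberg adjustment. The SE given with a log2 fold change was worked back from the test, as its absolute value over the square root of edgeR's F statistic. It therefore rests on all 20 libraries. Log2 CPM used a prior count of 2. Spread was tested with limma 3.58.1 on absolute deviations from the age mean, scaled for the number of libraries in an age, in the same 20 libraries. On simulated counts with a raised dispersion in some genes, the spread test missed most of these and called some unchanged genes. DESeq2 1.42.0, limma voom and the settings in the closing section were alternatives. The jackknife SE leaves out each of the 10 libraries in turn. Chi-square over its degrees of freedom was 66.5 or more for every pair within an age, so no library was counted as a repeat of another.

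The deposited RPKM values had been divided by depths from a series of 25 that repeats down the rows. This series was fitted to the counts and RPKM values. It gave 99.9993% of nonzero values within 0.1% or the last decimal, against 5.47% with each library's own depth. Both shares use gene lengths recovered with the series, so the second is not a comparison on equal terms. The series holds the totals of all 20 libraries, and its other depths match no library given here. The log2 depths used differed from the libraries' own with an SD of 0.29, which adds differences between libraries to the RPKM values. The RPKM values served only as an alternative and to recover gene lengths. As an alternative they were tested with limma on log2(RPKM + 0.1), for IDs with at least 0.5 in 5 libraries. Named IDs have at least 10 CPM on average and are the 2 with the smallest p in each direction, for the mean among IDs whose ages do not overlap.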

Additional observations from a re-analysis of the deposited data

Results flagged for a closer look

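In 42 groups of 5 values examined at 10 and 14 weeks, 2 held a library far from the other 4, where chance flags about 1 in 20 groups. Both concern 14 weeks replicate 5, which lay closer to the mean of the other libraries of its age than they did. Its distance over all genes tested was 0.403, against 0.55 to 0.60 in the other 4 libraries, and in the class from 10 to 100 CPM it was 0.336, against 0.47 to 0.51. The 2 values come from overlapping sets of genes.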

How the results depend on the processing

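No paired analysis was possible because the replicate numbers follow accession order and pair no libraries. Genes with a mean difference numbered 0 in edgeR, 270 in DESeq2 and 0 to 514 on leaving out 1 library. The 2440 wider and 47 narrower genes became 686 and 8 with the 10 libraries alone, 0 and 0 with deviations from the age median, 0 and 0 without 14 weeks replicates 3 and 4, and 45 and 2 without these and 10 weeks replicate 4. Narrower genes numbered 28 with upper-quartile factors and 135 with no filter. Leaving out 1 library gave 20 to 3934 wider and 0 to 90 narrower genes.

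Without both 14 weeks replicates 3 and 4 the median log2 ratio of the SDs was 0.026 over all genes. By class it was −0.084, 0.017, 0.085, −0.10 and −0.57 from the lowest to the highest. There the SD at 14 weeks is over fewer libraries, which by itself tends to lower the ratio. At 1000 CPM and over it was −0.32 without all 3 libraries, −0.13 with the deposited RPKM values and −0.059 to 0.65 on leaving out 1 library. Under 1 CPM it was 0.27 to 0.58 on leaving out 1.

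The distance differed between ages by 0.070 over all genes without replicates 3 and 4, and by 0.048, 0.062 and 0.074 in the 3 lower classes and −0.11 in the highest. With the mean over genes the 3 lower classes gave 0.25, 0.33 and 0.24 (adjusted p = 0.0529 each, exact permutation test). With RPKM they gave 0.16, 0.22 and 0.18, no longer past the threshold (adjusted p = 0.0595, 0.0595 and 0.0926, exact permutation test). The highest class gave −0.068 with RPKM and, from counts, −0.057 without all 3 libraries. The depths in the RPKM values add differences between libraries, so these values are not a clean measure of spread. Leaving out 1 library gave 0.15 to 0.27 over all genes and 0.13 to 0.23, 0.17 to 0.29, 0.14 to 0.24, 0.11 to 0.34 and −0.078 to 0.26 from the lowest to the highest class.

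The spread difference of Nfu_g_1_020369 was −0.063 without replicates 3 and 4 and −0.086 without all 3 libraries. In these settings the ages hold unequal numbers of libraries. The cause of the changes was not tested.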
